A study of Homo sapiens with 4 samples.

Results

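The CENP and CEP genes encode proteins of the centromere and of the centrosome. They were chosen by symbol: every probe set whose single gene symbol in GEO's platform annotation begins with CENP, or is CEP followed by digits. This gave 54 genes, 18 CENP and 36 CEP, of 17687 genes with 1 symbol on the array. The highest mean over the 4 arrays was to decide between probe sets of 1 gene, but no member had more than 1 probe set, so this step left out none. All 54 symbols were current in the RefSeq gene table.

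The samples were A549 cells, a human line established from a lung adenocarcinoma, and both groups carried a short hairpin RNA against LDOC1 and were grown with puromycin. In 2 samples the cells also expressed H2BK120R, a histone H2B whose acceptor lysine for monoubiquitin is replaced by arginine, and in 2 they carried the empty vector. According to the submitters, the hairpin raised monoubiquitylated H2B and the mutant lowered it. The comparison therefore asks which of these transcripts differ when that mark is lowered in LDOC1-depleted cells. Neither an unmutated H2B construct nor cells without the hairpin were analysed here, and effects of the mutation and of added histone cannot be told apart. No source used here gives the promoter behind the construct or says whether each line is 1 clone.

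Centromeres are marked by nucleosomes that hold CENP-A in place of histone H3. On them sits the constitutive centromere-associated network, made of CENP proteins, which carries the outer kinetochore that binds spindle microtubules. Centrosomes consist of a pair of centrioles in a protein matrix, and the older centriole bears appendages that anchor microtubules and can found a primary cilium. The names record where a protein was found (CENP) or its apparent mass (CEP), not descent from a common ancestor. Several CENP genes, such as CENPA, CENPE and CENPF, and also CEP55 are transcribed mainly in G2 and mitosis in dividing cells, while many CEP genes are transcribed through the whole cell cycle. CPAP, a centriole protein once named CENPJ, falls outside the rule by its present symbol.

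The table held 21448 probe sets per array. Array medians of the log2 level were 6.4 to 6.43, and pairs of arrays correlated at 0.990 to 0.994 across probe sets. Vector replicate 1 correlated least with the others. The epithelial keratin genes KRT8 and KRT18 lay at percentiles 99.8 and 98.7 of all probe sets by mean level. The keratin gene KRT19 was at 52.3 and CDH1 at 84.1. The epithelial marker EPCAM was at percentile 42.9 and the alveolar markers SFTPB, SFTPC, NAPSA and NKX2-1 were between 22.6 and 27.9. The 9 measured markers of leukocytes, fibroblasts and endothelium ranged from 7.18 (PECAM1, endothelium) to 64.2 (COL1A2, fibroblasts). COL1A2, COL1A1 at 48.1 and VWF at 47.3 ranked above EPCAM, while the leukocyte marker PTPRC, at 33.2, ranked below it. These ranks are rough, since probe sets differ in how well they hybridise. The labels do not say that replicates came from separate cultures, so the p-values may reflect a spread that is only technical. A level is also relative to the total RNA of the culture, and fewer expressing cells cannot be told apart from less RNA per cell.

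No CENP or CEP gene passed the adjusted threshold. Over all 21448 probe sets, 0 had an adjusted p under 0.05 in limma with Benjamini-Hochberg adjustment (0%), and the smallest adjusted p among the members was 0.532. The signs leaned to one side in both families. Of 18 CENP genes, 15 were higher with H2BK120R, 2 were lower and 1 was equal, and of 36 CEP genes, 27 were higher, 8 lower and 1 equal. Over all probe sets 49.9% were higher and 49.4% lower. The median log2 difference was 0.17 for CENP and 0.15 for CEP genes, against 0 over all probe sets.

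**Figure D1:**
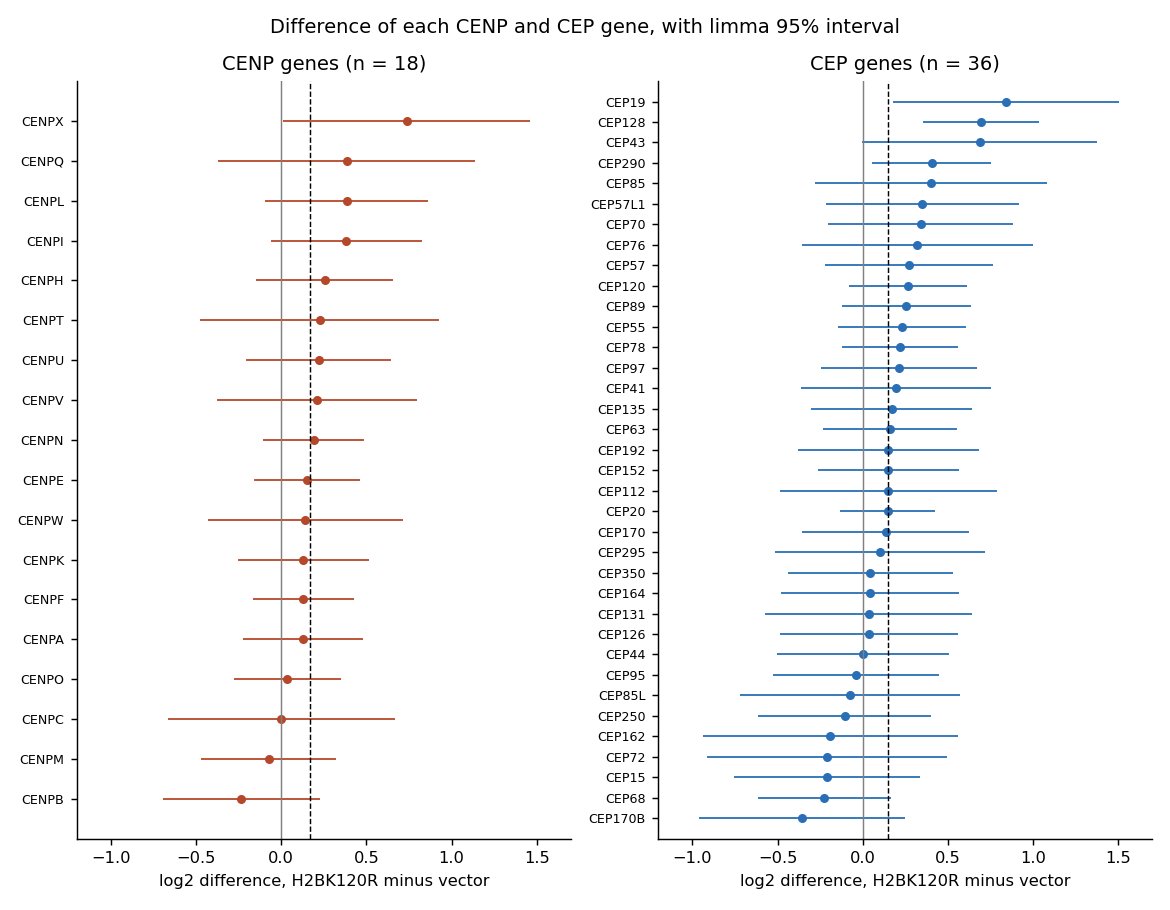
Log2 difference, H2BK120R minus vector, of each CENP (left) and CEP (right) gene, with limma's 95% confidence interval as a bar and the family median as a dashed line. The medians are 0.17 and 0.15, and only the intervals of CENPX, CEP19, CEP128 and CEP290 leave out 0.

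At an unadjusted p under 0.05 there was 1 CENP gene and there were 3 CEP genes, all higher with the mutant. That is 5.56% and 8.33% of the members, near the 6.70% of all probe sets in either direction (3.62% higher and 3.08% lower). Both arrays with H2BK120R lay above both vector arrays for 9 CENP genes (50%) and 11 CEP genes (30.6%), against 18.6% of all probe sets. They lay below both vector arrays for 2 CENP genes and 1 CEP gene, against 17.9% of all probe sets. For 1 gene on 2 arrays a group, the smallest two-sided p of an exact permutation test is 0.333.

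CEP128 was the member with the smallest p. It encodes a protein of the subdistal appendages of the mother centriole. Its probe set TC1400009829.hg.1 was at 12.06 and 12.41 (log2 level) with H2BK120R, against 11.58 and 11.50 with the vector. Both arrays with the mutant were higher than both vector arrays, and the mutant's replicates differed by less than the lower of them differed from the higher vector array. The difference was 0.69 ± 0.16 (SE), or 1.62-fold, with a 95% confidence interval of 0.35 to 1.04 and a limma adjusted p of 0.532. With 1 array left out it ranged between 0.52 and 0.87.

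The other CEP genes at an unadjusted p under 0.05 act in cilia. CEP19, which recruits the small GTPase RABL2 to the ciliary base, was at 7.08 and 7.75 with H2BK120R, against 6.37 and 6.78 with the vector. CEP290, a scaffold of the ciliary transition zone, was at 11.53 and 11.49, against 11.26 and 10.95 with the vector. In both genes the groups did not overlap, though the replicates of CEP19 with the mutant lay far apart. Their differences were 0.84 ± 0.30 and 0.41 ± 0.16 (SE), with limma adjusted p of 0.722 and 0.745. Without H2BK120R replicate 2 the difference of CEP19 was 0.505, and without vector replicate 2 that of CEP290 was 0.25.

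CENPX had the largest difference among the CENP genes. It encodes a small histone-fold protein that pairs with CENP-S at the centromere and also acts with the Fanconi anaemia helicase FANCM. Its levels were 6.13 and 6.31 with H2BK120R, against 5.10 and 5.87 with the vector. The groups did not overlap, but vector replicate 2 lay nearer to both arrays with the mutant than to vector replicate 1, the low one. The difference was 0.73 ± 0.33 (SE), or 1.66-fold, with a 95% confidence interval of 0.0092 to 1.46 and a limma adjusted p of 0.745. It was 0.35 without vector replicate 1 and 1.12 without vector replicate 2.

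**Figure D2:**
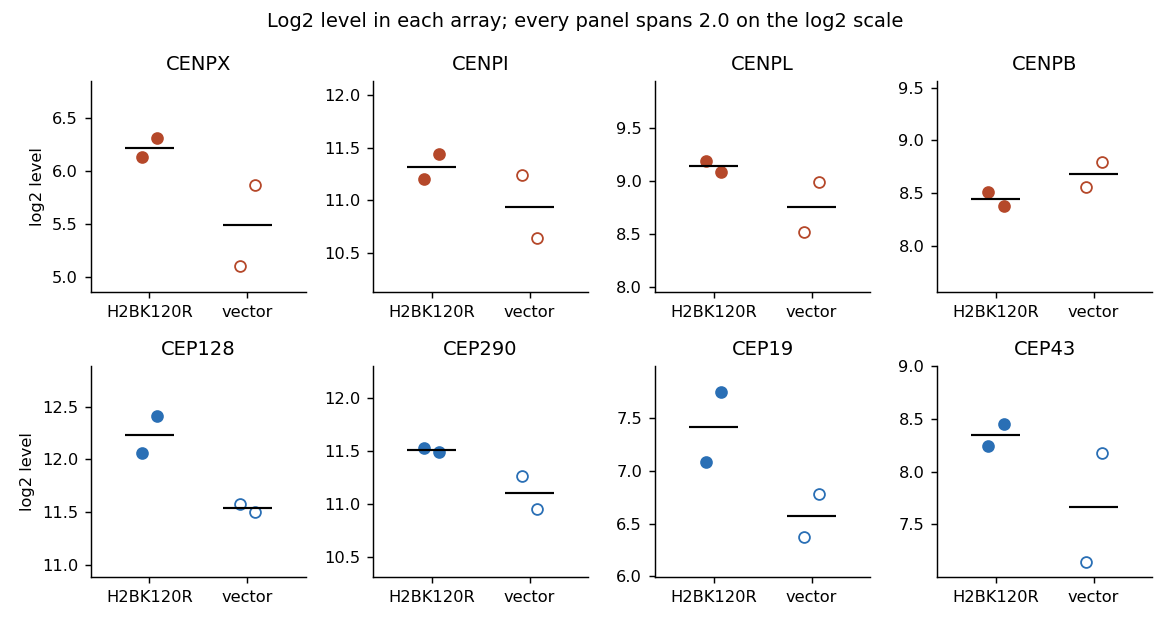
Log2 level of 8 members in the single arrays with H2BK120R (filled, left) and vector (open, right), with replicate 1 left of replicate 2 and the group mean as a bar. Of the 8, only CENPI has groups that overlap. In CENPX and CEP43 vector replicate 1, at 5.10 and 7.14, lies far below the other arrays.

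Promoters of 6 members are shown because they hold or lack the elements that time transcription in the cell cycle. CENPA, CENPF and CEP55 are classical mitotic genes, and CENPX, CEP128 and CEP290 had the smallest p-values beside CEP19. The sequences are those of RefSeq in GRCh38.p14, from 250 bases before to 50 after the annotated start, 5′ to 3′ on the gene's strand. They lie at chr2:26785806-26786105 on the plus strand (CENPA), chr1:214602945-214603244 on the plus strand (CENPF), chr10:93496362-93496661 on the plus strand (CEP55), chr17:82022829-82023128 on the minus strand (CENPX), chr14:80941689-80941988 on the minus strand (CEP128) and chr12:88142039-88142338 on the minus strand (CEP290). Capitals mark, on either strand, the cell cycle homology region CHR (TTTGAA), the CCAAT box bound by NF-Y (CCAAT) and an E2F-like element (TTTNNCGC).
CENPA: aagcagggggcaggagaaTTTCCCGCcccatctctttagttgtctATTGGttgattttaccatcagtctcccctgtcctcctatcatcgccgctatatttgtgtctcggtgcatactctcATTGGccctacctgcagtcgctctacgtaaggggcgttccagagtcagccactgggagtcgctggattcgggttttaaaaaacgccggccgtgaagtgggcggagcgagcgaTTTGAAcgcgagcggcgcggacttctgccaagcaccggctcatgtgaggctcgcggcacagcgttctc
CENPF: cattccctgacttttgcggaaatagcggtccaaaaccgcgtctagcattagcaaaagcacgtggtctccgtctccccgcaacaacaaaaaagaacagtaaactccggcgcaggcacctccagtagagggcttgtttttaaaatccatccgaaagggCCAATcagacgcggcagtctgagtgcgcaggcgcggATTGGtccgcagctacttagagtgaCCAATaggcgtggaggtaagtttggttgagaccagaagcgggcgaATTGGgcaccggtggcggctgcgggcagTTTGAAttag
CEP55: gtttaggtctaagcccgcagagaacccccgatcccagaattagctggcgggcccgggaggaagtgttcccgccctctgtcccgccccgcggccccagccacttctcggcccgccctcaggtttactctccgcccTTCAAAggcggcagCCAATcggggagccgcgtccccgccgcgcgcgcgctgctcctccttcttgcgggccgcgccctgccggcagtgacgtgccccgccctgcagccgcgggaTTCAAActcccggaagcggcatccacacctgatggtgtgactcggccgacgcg
CENPX: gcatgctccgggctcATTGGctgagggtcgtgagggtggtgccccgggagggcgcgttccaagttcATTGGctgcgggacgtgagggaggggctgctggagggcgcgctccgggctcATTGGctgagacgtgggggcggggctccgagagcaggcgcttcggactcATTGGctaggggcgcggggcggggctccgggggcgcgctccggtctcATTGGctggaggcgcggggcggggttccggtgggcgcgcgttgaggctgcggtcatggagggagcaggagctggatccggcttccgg
CEP128: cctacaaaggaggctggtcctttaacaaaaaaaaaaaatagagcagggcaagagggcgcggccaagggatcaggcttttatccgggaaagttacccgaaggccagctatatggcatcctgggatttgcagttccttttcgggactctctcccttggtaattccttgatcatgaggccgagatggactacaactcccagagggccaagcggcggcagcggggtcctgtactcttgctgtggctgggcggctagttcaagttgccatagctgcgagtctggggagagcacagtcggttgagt
CEP290: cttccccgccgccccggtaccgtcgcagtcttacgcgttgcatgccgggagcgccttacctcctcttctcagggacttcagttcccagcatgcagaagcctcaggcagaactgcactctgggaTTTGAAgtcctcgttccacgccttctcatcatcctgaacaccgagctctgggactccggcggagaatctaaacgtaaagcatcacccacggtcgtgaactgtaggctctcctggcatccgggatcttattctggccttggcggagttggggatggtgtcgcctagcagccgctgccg

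CENPA, CENPF and CEP55 each held a CHR and a CCAAT box, and CENPA also an E2F-like element. The CENPX promoter had 5 CCAAT matches spaced 47 to 51 bases apart and no CHR. CEP290 had a CHR alone, and in CEP128 these letters were not found. Promoters were matched for 15 of 18 CENP and 32 of 36 CEP genes. A CHR was present in 33.3% of the CENP and 37.5% of the CEP promoters, against 15.4% of 27305 promoters of the same length. The CCAAT box was present in 60% and 53.1%, against 35.7%, and the E2F-like element in 20% and 21.9%, against 6.90%. Among the 14250 matched promoters of measured genes with 1 symbol, the shares were 12.0% (CHR), 36.4% (CCAAT box) and 8.87% (E2F-like). In the same order they were 63.6%, 100% and 9.09% in 11 matched promoters of marker genes of the G2 and M phases. In 10 of marker genes of the G1 to S transition they were 0%, 60% and 80%. The 5 CENP genes with a CHR had a median log2 difference of 0.125 and the 10 matched without it 0.215. For CEP genes the medians were 0.16 with (12 genes) and 0.155 without (20 genes). For the CCAAT box they were 0.14 with and 0.18 without in CENP genes, and 0.15 and 0.17 in CEP genes. For the E2F-like element they were 0.125 and 0.17 in CENP genes, and 0.15 and 0.17 in CEP genes. A match to these letters is not evidence of binding, and no chance test was made.

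Of the 5 genes whose proteins mark and read the centromere, 3 were higher, 1 was lower and 1 was equal, with a median difference of 0.125. CENPA, the centromeric histone H3 variant, was at 10.53 and 10.56 with H2BK120R, against 10.48 and 10.36 with the vector. Its difference was 0.125 ± 0.16 (SE), with a 95% confidence interval of -0.23 to 0.48. CENPC, which binds the CENP-A nucleosome and reaches out to the outer kinetochore, was at 7.08 and 7.69 with the mutant, against 7.70 and 7.07 with the vector. The replicates of each group differed widely and the group means were equal. CENPB, which binds a motif in alpha-satellite DNA, stood on the lower side, at 8.51 and 8.38, against 8.56 and 8.80 with the vector. Its groups did not overlap, and the difference was -0.23 ± 0.21 (SE; limma adjusted p = 0.849). CENPN and CENPL bind the CENP-A nucleosome as a pair. CENPN was at 12.41 and 12.40, against 12.12 and 12.31 with the vector, and CENPL at 9.19 and 9.09, against 8.52 and 8.99. Both pairs of groups were separate and vector replicate 1 was lowest in each. The differences were 0.19 ± 0.14 and 0.385 ± 0.22 (SE), and CENPL was at 0.15 without vector replicate 1.

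In the other subcomplexes of the inner kinetochore 9 of 10 genes were higher, and the groups did not overlap for 5 of them, or 50%, against 36.5% of all probe sets in either direction. In the CENP-H, I, K and M complex, which joins the CENP-C and CENP-T branches, 3 of 4 genes were higher. CENPI was at 11.20 and 11.44 with H2BK120R, against 11.24 and 10.64 with the vector, so that only vector replicate 2 was low. Its difference of 0.38 ± 0.20 (SE; limma adjusted p = 0.764) was 0.08 without that array. CENPH was at 10.19 and 9.88, against 9.73 and 9.83 with the vector, and CENPM at 9.41 and 9.43, against 9.49 and 9.50. CENPH was thus separate on the higher side and CENPM, with replicates very close, on the lower side, with a difference of -0.075. All 3 measured genes of the CENP-O, P, Q, U complex were higher, with differences between 0.035 and 0.385. CENPU, a docking site for the mitotic kinase PLK1, was at 9.08 and 9.09, against 8.79 and 8.94 with the vector. The histone-fold genes CENPT, CENPW and CENPX differed by 0.14 to 0.73. CENPT, which recruits the NDC80 complex, was at 4.34 and 4.03, against 3.73 and 4.19 with the vector. Its groups overlapped, and it was the 1 member among the dimmest 25% of all probe sets.

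At the outer kinetochore, both measured CENP genes were separate between the groups by a small margin. CENPE, a kinesin that moves chromosomes towards microtubule plus ends, was at 11.59 and 11.63 with H2BK120R, against 11.44 and 11.48 with the vector. CENPF, a large coiled-coil protein that accumulates in G2, was at 12.55 and 12.58, against 12.33 and 12.54 with the vector. In CENPF vector replicate 2 nearly reached the arrays with the mutant. The differences were 0.15 ± 0.14 and 0.13 ± 0.13 (SE), with limma adjusted p of 0.854 and 0.869. The 5 CENP genes not given by their levels, CENPK, CENPO, CENPQ, CENPV and CENPW, were all higher, with differences between 0.035 and 0.385.

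Among CEP genes, those listed for centriole duplication and the matrix around centrioles were mostly higher. Of these 19, 17 were above 0, 1 was below and 1 was equal, with a median difference of 0.17. CEP43, a centriole protein needed for cilia, was at 8.24 and 8.45 with H2BK120R, against 7.14 and 8.18 with the vector. Vector replicate 1 stood apart, and the difference of 0.69 ± 0.31 (SE; limma adjusted p = 0.745) was 0.165 without it and 1.205 without the other vector array. CEP120, which lengthens centrioles, was at 10.93 and 10.78, against 10.54 and 10.64 with the vector, a difference of 0.265 ± 0.16. CEP152, CEP192 and CEP135 overlapped between the groups. CEP152 and CEP192 bring the duplication kinase PLK4 to the centriole, and both differed by 0.15. CEP135, of the cartwheel and centriole wall, differed by 0.17. CEP72, which binds centriolar satellites, was at 6.4 and 6.25, against 6.13 and 6.94 with the vector, and stood lower only through vector replicate 2.

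Genes of the appendages and of the linker between centrosomes were divided, with 5 of 8 higher and 3 lower. CEP89, a distal appendage protein, was at 11.83 and 12.21 with H2BK120R, against 11.60 and 11.93 with the vector, and its groups overlapped. CEP164, of the same appendages, differed by 0.04 ± 0.24 (SE). CEP68, a linker protein, was at 9.59 and 9.79, against 9.97 and 9.86 with the vector, and it was the 1 CEP gene lower in each array with the mutant than in each vector array. CEP250, the linker's anchor at the centriole base, overlapped and differed by -0.105 ± 0.23, but by 0.03 without H2BK120R replicate 2 and 0.125 without vector replicate 2. CEP170B, a paralog of the subdistal appendage gene CEP170, had the lowest difference of all members, -0.355 ± 0.275 (SE; limma adjusted p = 0.825), with levels of 7.03 and 6.67 against 7.0 and 7.41 with the vector. Beside CEP19 and CEP290, the ciliary gene CEP162 differed by -0.19 ± 0.34, and its arrays with the mutant, at 6.18 and 5.33, enclosed both vector arrays at 5.83 and 6.06. CEP55, which brings the abscission machinery to the midbody, was at 10.41 and 10.67, against 10.24 and 10.38 with the vector, a difference of 0.23 ± 0.17. CEP15 differed by -0.21 ± 0.25. The 19 CEP genes not given by their own values had differences between -0.075 and 0.40, of which 16 were above 0, 2 below and 1 equal.

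The families were then compared array by array, as deviations of each gene from its mean over the 4 arrays. The CENP genes averaged 0.049 and 0.14 in the H2BK120R replicates, against -0.17 and -0.019 in the vector replicates. The CEP genes averaged 0.030 and 0.125, against -0.13 and -0.021 in the vector replicates. Both families were thus highest in H2BK120R replicate 2 and lowest in vector replicate 1, while the other vector array lay near the mean. Of the 18 CENP genes 12, and of the 36 CEP genes 18, had their lowest level in vector replicate 1. H2BK120R replicate 2 held the highest level of 10 CENP and 20 CEP genes. The same counts were not made over all probe sets, so they do not show a trait particular to these families.

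**Figure D3:**
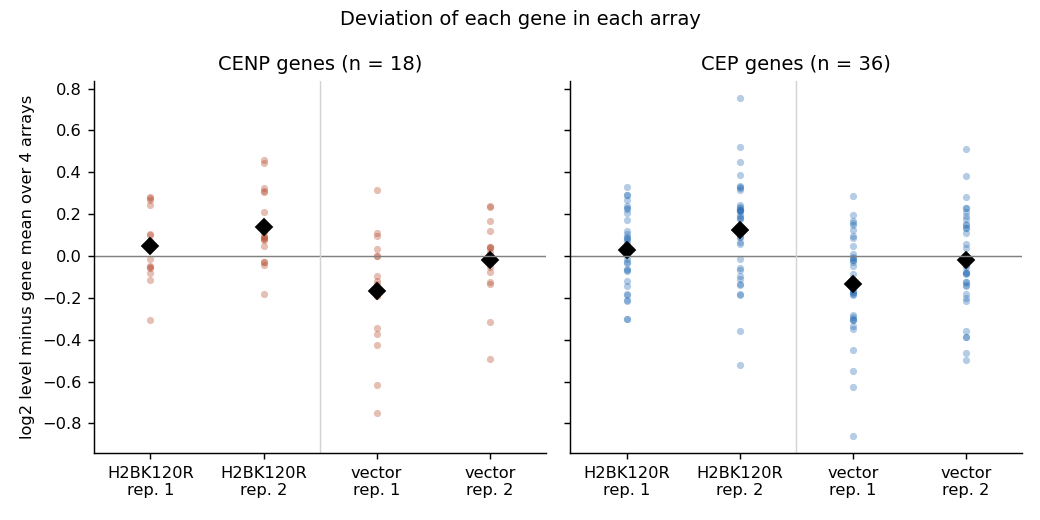
Log2 level of each CENP (left) and CEP (right) gene minus its own mean over the 4 arrays, with the family mean in each array as a black diamond. Both families sit highest in H2BK120R replicate 2 (0.14 and 0.125) and lowest in vector replicate 1 (-0.17 and -0.13).

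The gap between CENP and CEP genes was of the size of the difference between the vector replicates. The mean deviation of CENP minus that of CEP genes was 0.019 and 0.014 in the H2BK120R arrays, against -0.034 and 0.0013 in the vector arrays. The H2BK120R arrays lay above the vector arrays, yet the distance between the vector replicates was larger than that from the higher vector array to either array with the mutant. The difference of the medians, CENP minus CEP, was 0.02 with all arrays and between -0.0475 and 0.045 with 1 array left out, so its sign depended on which arrays were kept. Leaving out vector replicate 1 gave -0.0225 and leaving out H2BK120R replicate 1 gave -0.0475. The mean difference was 0.19 over CENP and 0.16 over CEP genes, with a standard deviation over members of 0.21 and 0.26.

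Single arrays set against each other show how much the replicates themselves differed. H2BK120R replicate 1 minus vector replicate 1 gave a median of 0.205 for CENP and 0.20 for CEP genes. Against vector replicate 2 the same array gave 0.105 and 0.035. H2BK120R replicate 2 gave 0.235 and 0.23 against vector replicate 1, and 0.15 and 0.25 against vector replicate 2. All 4 comparisons between groups were above 0 in both families, at medians of all probe sets between -0.01 and 0.01. Within the groups, vector replicate 2 minus replicate 1 gave 0.14 and 0.115, and H2BK120R replicate 2 minus replicate 1 gave 0.03 and 0.18. The replicates of 1 group therefore differed by amounts as large as some of the comparisons between groups.

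**Figure D4:**
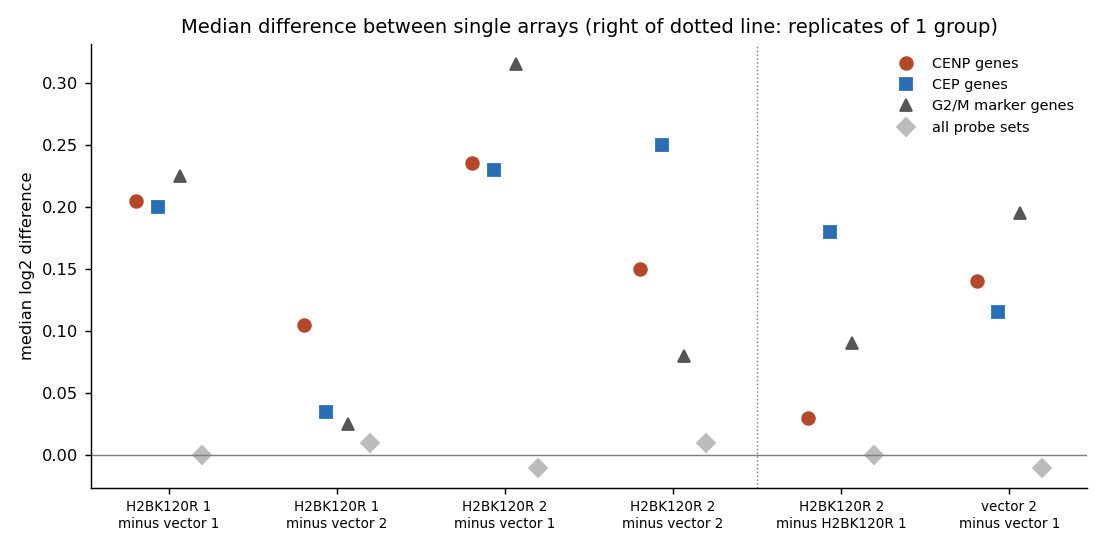
Median log2 difference between single arrays for CENP genes, CEP genes, 14 marker genes of G2 and mitosis, and all probe sets. The 4 pairs on the left compare H2BK120R with vector, the 2 on the right compare replicates; for CENP genes the vector pair reaches 0.14 and the lowest pair between groups 0.105.

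Markers of the G2 and M phases leaned the same way, and 0 of them passed the adjusted threshold. Of 14 such genes, 13 were higher with H2BK120R and the median difference was 0.175, and their mean log2 level was 12.71 and 12.75 in the arrays with the mutant, against 12.45 and 12.62 in the vector arrays. Vector replicate 1 was again lowest. H2BK120R replicate 1 minus vector replicate 2 gave a median of 0.025 for these markers, with 8 of 14 higher, and vector replicate 2 minus vector replicate 1 gave 0.195. The cyclin gene CCNA2 was at 13.52 in both arrays with the mutant, against 13.29 and 12.28 with the vector, and the proliferation marker MKI67 at 14.56 and 14.71, against 14.27 and 14.45. Markers of the G1 to S transition were divided, with 7 of 13 higher and a median of 0.025, and means of 10.94 and 11.04, against 10.94 and 11.11 in the vector arrays. In that list the cyclin gene CCNE1 differed by -0.315 ± 0.17 and MCM4, of the replicative helicase, by 0.215 ± 0.17 (SE). Of 8 markers of multiciliated cells, 3 were higher, with a median of -0.32 and means of 4.70 and 4.40, against 4.81 and 4.64 in the vector arrays. The part of cell cycle phase in the CENP and CEP values was not tested.

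Other genes of the same structures, listed by function, differed from list to list. Of 4 measured genes for CENP-A loading and the remaining inner kinetochore, 3 were higher, with a median of 0.16. OIP5, a subunit of the MIS18 complex, was at 7.97 and 8.0 with H2BK120R, against 7.51 and 7.30 with the vector. The CENP-A chaperone gene HJURP differed by 0.11 ± 0.11 (SE). In the microtubule-binding network and spindle checkpoint, 13 of 18 genes were higher, with a median of 0.13. NDC80, the microtubule-binding subunit that CENP-T recruits, was at 10.83 and 10.84, against 10.41 and 10.33 with the vector, and SKA2 at 12.86 and 13.02, against 12.62 and 12.56. These groups were clearly apart in both genes, with differences of 0.465 ± 0.16 and 0.35 ± 0.13 (SE) and limma adjusted p of 0.705 and 0.725. Of the 4 genes of the chromosomal passenger complex, 2 were higher and 2 lower, and CDCA8 and AURKB differed by 0.315 ± 0.20 and 0.14 ± 0.21.

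On the centrosome side, 7 of 11 centriole assembly genes were higher, with a median of 0.11. SPICE1, a centriole and spindle protein, was at 9.30 and 9.56 with H2BK120R, against 8.66 and 8.83 with the vector, and RTTN, which acts in centriole growth, at 7.87 and 7.95, against 8.95 and 8.16. Their differences were of similar size and opposite sign, 0.69 ± 0.20 and -0.645 ± 0.27 (SE), with limma adjusted p of 0.678 and 0.745. Of 12 genes of the pericentriolar matrix and satellites, 8 were higher, with a median of 0.06. The gamma-tubulin gene TUBG1 differed by 0.235 ± 0.11 and pericentrin, PCNT, by 0.295 ± 0.21. Further appendage and linker genes had 3 of 7 higher and a median of -0.015, and CROCC, which forms linker fibres, differed by -0.565 ± 0.29 and SCLT1, a distal appendage gene, by -0.335 ± 0.19. Of 5 measured genes of augmin, which branches spindle microtubules, 2 were higher, and HAUS8 and HAUS2 differed by -0.61 ± 0.25 and -0.185 ± 0.19. In these lists 0 genes passed the adjusted threshold, and 7 of 61 (11.5%) had an unadjusted p under 0.05, 5 higher and 2 lower, against 6.70% of all probe sets.

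CEP genes were longer than most genes on the array, while CENP genes were near its median. The median genomic length, from RefSeq, was 27.4 kb for CENP genes (2.89 to 143 kb) and 66.5 kb for CEP genes (5.97 to 557 kb), against 25.9 kb for all probe sets with 1 gene symbol. In 4 equal classes of genes from the shortest to the longest, the median difference over all genes was -0.05, -0.02, 0.02 and 0.0575. In the same order the CENP genes, 3, 6, 5 and 4 in number, had medians of 0.125, 0.2175, 0.13 and 0.145. Of the CEP genes, the shortest class held only CEP19, at 0.84, and the second held 2 genes with a median of -0.0325. In the third class 9 of 15 CEP genes were higher, with a median of 0.195, and in the longest 16 of 18 were higher, with a median of 0.15. The correlation between log length and difference was -0.045 over the 18 CENP and 0.0042 over the 36 CEP genes, whose values share the same 4 arrays. Among the brighter 50% of probe sets, which held 15 CENP and 34 CEP genes, the medians were 0.14 and 0.15, against 0.03 for all probe sets there.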

How the data were processed

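RNA of 2 samples with H2BK120R and 2 with the vector, grouped by sample title, had been hybridised to a whole-transcript array. The deposited values are log2 levels per probe set, normalized between arrays by the authors, as inferred from their range and near-equal medians. Per the submitters' processing notes MAS5 was used; no source used here gives its version, the probe summary or detection calls. A wrong log base would rescale every difference.

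The whole table of 21448 probe sets was fitted with limma 3.58.1 (R 4.3.3; two-sided, no covariate, eBayes with trend), and p-values were adjusted by Benjamini-Hochberg over all of it. The fit was also run on simulated data with independent noise and no shift shared by the genes of an array. No result given here rests on that run. Counts and medians over members carry no test. The members, the lists and the rule that picks the genes to name were chosen with earlier results of these data known. That rule took, per family and direction, the 6 members with the smallest p and 14 genes of known role, and 2 genes from each other list. Promoters and lengths came from RefSeq (GRCh38.p14). Motif searches and figures used Python 3.11.15 and matplotlib 3.10.9. The alternatives were other normalizations, filters on dim probe sets, probe set choices, variance models, the replicate block and leaving out each array. The number of arrays limits the precision.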

Additional observations from a re-analysis of the deposited data

How the results depend on the processing

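Under every setting run, arrays left out included, 0 members had a limma adjusted p under 0.05, and the medians of CENP and CEP genes stayed above 0. With each array left out, the CENP median was between 0.1125 and 0.22 and the CEP median between 0.0975 and 0.225. The number of members at an unadjusted p under 0.05, 4 with all arrays, dropped to 1 without H2BK120R replicate 2 and to 2 without H2BK120R replicate 1, and reached 7 when vector replicate 2 was left out. These are 1.85%, 3.70% and 12.96% of the members, near the 2.31%, 3.47% and 11.3% of all probe sets in the same fits. CENP minus CEP, 0.02 with all arrays, was 0 after dropping the dimmest 25% of probe sets and -0.01 after dropping 50%, where fewer members remained, and between -0.0475 and 0.045 without 1 array. CENPC, equal between the groups with all arrays, ran from -0.315 to 0.315 without 1 array. Of the other named members 7 changed sign without some array: CENPT (-0.005 to 0.455), CEP135 (-0.05 to 0.39), CEP162 (-0.615 to 0.235), CEP164 (-0.065 to 0.145), CEP192 (-0.065 to 0.365), CEP250 (-0.335 to 0.125) and CEP72 (-0.615 to 0.195). Under the other settings 0 of them did. The cause of these changes, apart from fewer arrays or genes, was not tested. Of the members higher with all arrays, 10 of 15 CENP and 14 of 27 CEP genes kept that sign whichever array was left out. Of those lower, 2 of 2 CENP and 3 of 8 CEP genes did. The share of all probe sets that kept their sign was not counted, so these counts have no baseline. Quantile normalization gave medians of 0.138 and 0.125. Counting unnamed members too, it gave 14 CENP genes higher and 4 lower, in place of 15 and 2. For CEP genes it gave 27 and 9, in place of 27 and 8. In fits without 1 array, the lone sample was taken to vary as the other group does. With the replicate number as a block, 5 members (9.26%) had an unadjusted p under 0.05, against 8.61% of all probe sets. The replicate numbers are not shown to pair the samples. Deviations of same-numbered arrays from their group means correlated at 0.14 across probe sets. With 2 arrays a group both pairs must give the same value, so this is 1 value. No member was a pseudogene, a readthrough or one of the copies planned for exclusion, so that setting was not run, and averaging probe sets changed no member's difference. The median standard error of a single gene was 0.20 for CENP and 0.23 for CEP genes.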
